A study of Mus musculus with 4 samples.

Results

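The genes examined here belong to the integrated stress response: Atf4 and 9 genes that are known as its targets or partners, namely Ddit3, Trib3, Asns, Chac1, Atf3, Eif4ebp1, Ppp1r15a, Sesn2 and Psat1. They were chosen by name and found by their symbols in the count tables of mouse islet cells. All 10 symbols were present among the 32200 symbols of the tables. They took 11 of the 32227 rows, because Ddit3 is listed under 2 gene records, ENSMUSG00000025408 and ENSMUSG00000116429, whose UMIs were summed here.

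In the integrated stress response, kinases that sense amino acid shortage, misfolded protein in the endoplasmic reticulum (ER), viral RNA or lack of heme phosphorylate the initiation factor eIF2. General translation then drops, while the Atf4 mRNA, which carries upstream open reading frames, is translated better. ATF4 protein switches on genes for amino acid supply and for stress signaling, and insulin-producing β cells use the pathway because of their heavy load of secretory protein. Because ATF4 is set largely at translation, the Atf4 mRNA counted in these data is not a measure of ATF4 protein.

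Islets came from adult mice homozygous for a Myt3 allele in which CRISPR-Cas9 had placed an insertion that disrupts an upstream open reading frame, and from control mice homozygous for the wild-type allele. Myt3 (St18) is a zinc finger transcription factor of islet cells. According to the methods, each library pooled islets of male and female mice, so the spread between single animals is not seen. Diet and platform are a normal diet and PIPseq in the labels and a high-fat diet and inDrop-Seq in the methods, and this difference could not be settled. The libraries are called by their labels, mutant 1, mutant 2 and control 2, and the counts of control 1 were not analysed here. As counts of 1 control library only were read, the genotypes were not compared by a test, and no value below has a replicate error. Intervals are exact 95% Poisson or binomial intervals, which cover counting error only. The insertion cannot be read from UMI counts, so the genotype labels were not checked. Control 2 was the deepest library, with a median of 16249 UMIs in its β cells against 2883 in mutant 1 and 4606 in mutant 2. Its batch entry differs from that of the other libraries, so genotype, depth and batch entry cannot be told apart. The lists of barcodes shared 0 entries in any pair of libraries.

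β cells were taken as kept cells with at least 20% of their UMIs from Ins1 and Ins2 and under 5% each from Gcg, Sst and Ppy. They numbered 2165, 1512 and 2003 in mutant 1, mutant 2 and control 2. Hormone transcripts took 50.5%, 51.8% and 61.5% of their UMIs in mutant 1, mutant 2 and control 2. Levels are therefore given as CPM, the UMIs of a gene per 1000000 UMIs of all genes other than hormone and mitochondrial ones, and cells of matched depth hold the same number of these non-hormone UMIs. A UMI marks 1 captured transcript whatever its length. Genes that mark β cells also differed between the libraries, in both directions. Mafa had 3291, 3083 and 643 CPM and Pdx1 390, 388 and 182 CPM in mutant 1, mutant 2 and control 2. Nkx6-1, Slc2a2, Iapp and Ucn3 were likewise lowest in control 2. G6pc2, at 1267, 1408 and 2052 CPM, and Pcsk1, at 219, 221 and 370 CPM, were instead highest in control 2. All 8 β-cell markers were detected in each library, and their part in the results was not tested.

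Promoters of 9 members were found in the RefSeq table of GRCm38.p6, which gives 250 bases before and 50 bases after a start site. That of Eif4ebp1 was not in the table. ATF4 and its partners of the C/EBP family are known to bind a composite element, which was searched here as TGATGNAAN on both strands. Trib3, Asns, Chac1 and Atf3 each held 1 match, against 4.50% of all 27025 genes in the table and 2.67% of the 6102 genes in it that were abundant enough to be compared in β cells. Ddit3, Ppp1r15a, Sesn2, Psat1 and Atf4 held none in this window, which says nothing of sites elsewhere. The 4 matches are shown, in capitals, because they mark the members among which a shared pattern of counts could be looked for. Each stretch is given 5′ to 3′ on the strand of its gene.
Asns (chr6:7693214-7693243, minus strand): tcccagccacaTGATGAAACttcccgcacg
Chac1 (chr2:119351037-119351066, plus strand): ccttccctgccGTTGCATCActcctgccag
Trib3 (chr2:152344029-152344058, minus strand): attagctcaggTTTACATCAgccgggcggg
Atf3 (chr1:191183426-191183455, minus strand): cccttctcgcaCTTGCATCAccaagtccgc
The match of Asns read forward and began 23 bases before the start site, whereas the other matches read on the opposite strand. Those of Chac1 and Atf3 began 194 and 111 bases before the start site, and that of Trib3 began at base 14 of the transcript. Ppp1r15a instead held the palindrome TGACGTCA of a cAMP response element, 12 bases before its start. So did 2.03% of all genes in the table and 4.18% of its genes that were abundant enough to be compared in β cells. A match is a run of letters and not a measured site of binding.
Ppp1r15a (chr7:45526262-45526291, minus strand): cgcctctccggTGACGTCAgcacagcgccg

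In β cells the members did not move as 1 group between the libraries. Atf4, Ddit3, Chac1 and Ppp1r15a were called lower than control 2 in both mutant libraries, and Asns was called higher in both. Atf3, Eif4ebp1 and Sesn2 passed the threshold given next in 1 mutant library only, and Trib3 and Psat1 were too rare to call. A gene was called where its log2 ratio to control 2 passed 0.5 in size in the same direction in both mutant libraries, among genes with a mean level of at least 20 CPM. Of the 10 members 8 reached that level, of which 4 were lower and 1 was higher. Among all 7590 genes at that level 22.4% were lower and 21.4% were higher by the same rule, or 43.7% in all, so many genes differed between control 2 and the mutant libraries. The 8 members had a median log2 ratio of -0.76 (mutant 1) and -0.65 (mutant 2), against -0.04 and 0.01 for all genes.

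Atf4, the transcription factor at the center of the response, had 126 CPM in mutant 1 (430 UMIs, 95% interval 114 to 138), 154 in mutant 2 (554 UMIs, 141 to 167) and 353 in control 2 (4658 UMIs, 343 to 363). The mutant libraries lay close together and well below control 2. The log2 ratios to control 2 were -1.49 and -1.20, and 6.22% of all genes at that level had a lower mean ratio. Control 2 was also the library in which Atf4 was the most abundant member, whereas Asns and Ddit3 exceeded it in both mutant libraries.

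Ddit3 encodes CHOP, a factor that forms dimers with C/EBP proteins and is known for its part in cell death under lasting ER stress. Its level was 178 CPM in mutant 1, 198 in mutant 2 but 334 in control 2, with log2 ratios of -0.91 and -0.75. The counts hold UMIs for each of the 2 records of Ddit3 separately. The first record held 72.9%, 71.1% and 69.9% of them in mutant 1, mutant 2 and control 2. How reads were divided between the records was not examined. Scaled to all UMIs, with hormones included, Ddit3 was no longer called, with a mean log2 ratio of -0.48.

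Chac1, an enzyme that degrades glutathione, had the lowest ratios of the members. It had 8.19 CPM in mutant 1 (28 UMIs, 5.44 to 11.8), 13.9 in mutant 2 (50 UMIs, 10.3 to 18.3) and 66.9 in control 2 (883 UMIs, 62.5 to 71.4). The log2 ratios were -3.01 and -2.25, and 0.711% of all genes had a lower mean ratio. The gap of 0.75 between the mutant libraries was the widest among the members and remained well short of the distance to control 2. Trib3, a pseudokinase that restrains ATF4 and AKT signaling, was rare, at 9.36 CPM in mutant 1, 12.8 in mutant 2 and 14.6 in control 2. The interval of control 2, 12.6 to 16.8, overlapped those of both mutant libraries.

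Ppp1r15a encodes GADD34, the stress-induced subunit of the phosphatase that removes phosphate from eIF2 and so ends the response. It had 13.5 CPM in mutant 1 (46 UMIs), 22.5 in mutant 2 (81 UMIs) but 58.8 in control 2 (776 UMIs), with log2 ratios of -2.11 and -1.38. Its constitutive relative Ppp1r15b lay lower in both mutant libraries as well, at 14.0, 18.1 and 45.8 CPM in mutant 1, mutant 2 and control 2.

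Asns, the asparagine synthetase induced by amino acid shortage, went the other way. It had 443 CPM in mutant 1 (1514 UMIs, 421 to 466), 402 in mutant 2 (1448 UMIs, 382 to 424) and 208 in control 2 (2740 UMIs, 200 to 215). The log2 ratios were 1.09 and 0.96, and 8.75% of all genes had a higher mean ratio. The ratio of the Asns level to the Atf4 level, which no scaling alters, was 3.52 in mutant 1, 2.61 in mutant 2 but 0.588 in control 2. Psat1, the serine synthesis aminotransferase, was rare, at 18.4, 13.9 and 14.8 CPM in mutant 1, mutant 2 and control 2, and its intervals overlapped across the 3 libraries.

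The remaining members differed less. Atf3, a factor induced by stress and by dissociation of tissue, had 119 CPM in mutant 1, 148 in mutant 2 against 97.2 in control 2, with log2 ratios of 0.29 and 0.60. It was called higher with all UMIs as the scale and without mutant 1. Eif4ebp1, a repressor of cap-dependent translation, had 24.0, 27.8 and 36.6 CPM, with ratios of -0.61 and -0.39. Sesn2, which signals leucine and stress to mTORC1, had 37.2, 28.6 and 41.9 CPM, with ratios of -0.17 and -0.55. Each of these genes passed the fold in only 1 of the mutant libraries. The 4 members with the composite element had mean log2 ratios of 1.02 for Asns, 0.45 for Atf3, -0.41 for Trib3 and -2.63 for Chac1, so they lay on both sides of 0.

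**Figure D1:**
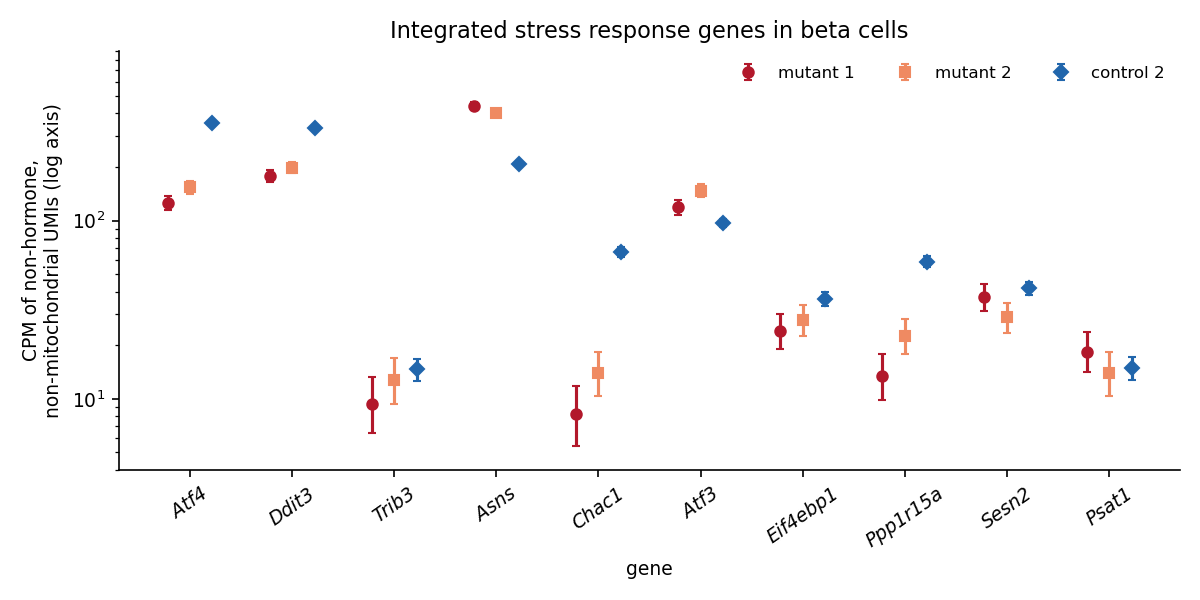
CPM of non-hormone, non-mitochondrial UMIs (log axis) of the 10 genes in β cells of mutant 1, mutant 2 and control 2, with exact 95% Poisson intervals as bars. Control 2 lies above both mutant libraries for Atf4 (353 against 126 and 154) and Chac1 (66.9 against 8.19 and 13.9), and below them for Asns (208 against 443 and 402).

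Depth was examined directly. With each β cell thinned to 1000 non-hormone UMIs, 11.2% of 1523 cells in mutant 1 held an Atf4 UMI, 14.4% of 1255 in mutant 2 but 30.0% of 1937 in control 2. The thinning left out 642, 257 and 66 shallower cells. Without thinning the shares were 16.3%, 27.8% and 76.5%. The thinned shares with an Asns UMI were 35.9%, 30.4% and 18.5%, and those with a Chac1 UMI 0.788%, 1.20% and 6.30%. For Ddit3 they were 16.6%, 16.4% and 27.1%, and for Ppp1r15a 1.12%, 2.63% and 6.04%. For each of these genes control 2 lay on the same side of both mutant libraries as in the levels. Among β cells of 3000 to 6000 UMIs in every library, of which control 2 held 271, the mean log2 ratio was -1.34 for Atf4, -2.76 for Chac1 and 0.69 for Asns. Acinar markers summed to 70.8, 42.3 and 125 CPM in β cells of mutant 1, mutant 2 and control 2, with all 5 markers detected in each. In β cells without an acinar UMI, a selection chosen after seeing the data, the mean ratios were -1.35, -2.47 and 1.08 for the same genes.

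The wider pathway was followed through 50 further genes, listed by role, of which 38 reached the level for comparison. Of these 7 were lower in both mutant libraries, 10 were higher and 21 were neither, and the median log2 ratios were -0.12 (mutant 1) and -0.06 (mutant 2). Over all genes compared, 22.4% were lower and 21.4% higher. Among kinases and eIF2 factors, Eif2ak3 (PERK, the kinase of the ER) was lower, at 76.9, 77.8 and 136 CPM in mutant 1, mutant 2 and control 2. Eif2ak4 (GCN2, the kinase that senses uncharged tRNA) was higher, at 48.0, 35.3 and 22.5 CPM. The 4 subunits of eIF2B that could be compared were called neither way.

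Transcription factors linked to ATF4 moved apart. Atf5, a paralog of Atf4, was higher, with 1396 CPM in mutant 1, 1269 in mutant 2 and 423 in control 2 and log2 ratios of 1.72 and 1.59. Cebpb was higher at 0.78 and 0.77, and the mTORC1 inhibitor Ddit4 at 0.97 and 0.95. Nupr1, a chromatin factor, was lower at -1.22 and -1.11, and Cebpg had ratios of -0.35 and -0.33. The secreted factors Gdf15 and Fgf21 had at most 12 UMIs in the β cells of any library, too few to compare.

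Genes of amino acid supply were split, as were all genes compared, of which 22.4% were lower and 21.4% higher. Of 12 aminoacyl-tRNA synthetases 4 were higher, 1 was lower and 7 were neither. Sars had the largest ratios, 1.59 and 1.32, from 1070 CPM in mutant 1, 884 in mutant 2 and 355 in control 2. Mars1, Wars and Gars were the others that were higher, and Lars was lower at -1.27 and -0.91. Of 5 transporters compared, Slc3a2 and Slc1a4 were higher and Slc7a1 and Slc38a2 were lower. Slc3a2, the heavy chain of several amino acid exchangers, had ratios of 0.80 and 0.72. Slc7a11, the cystine transporter, was too rare to compare, at 13.5, 10.6 and 13.2 CPM. Of 7 genes of amino acid and one-carbon synthesis, Phgdh, which makes the first step toward serine, was lower at -1.72 and -1.90 and the other 6 were neither.

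Neighboring stress programs did not share 1 direction with each other. Of 10 targets of the ER stress factors ATF6 and XBP1, 7 were lower in both mutant libraries and 0 were higher, with medians of -1.17 and -1.07. The shares over all genes compared were 22.4% lower and 21.4% higher. Hspa5, the ER chaperone BiP, had 1820 CPM in mutant 1, 1939 in mutant 2 but 4629 in control 2, with log2 ratios of -1.35 and -1.26. Sdf2l1 was the lowest of these targets, at -2.92 and -2.62, while Xbp1 itself had ratios of -0.09 and -0.07. Manf lay above control 2, at 0.54 and 0.38, and passed the fold in mutant 1 only. Of 10 immediate early genes, which dissociation of tissue is known to induce, 4 were higher, 0 were lower and 6 were neither, beside the same shares over all genes. Jun, at -0.77 and -0.47, and Btg2, at -0.57 and -0.26, had ratios below 0 in both mutant libraries. Fos had 4139, 4229 and 1622 CPM in mutant 1, mutant 2 and control 2, with ratios of 1.35 and 1.38. The part that dissociation plays in the levels of Atf3 or Ppp1r15a, which also respond to it, was not tested.

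**Figure D2:**
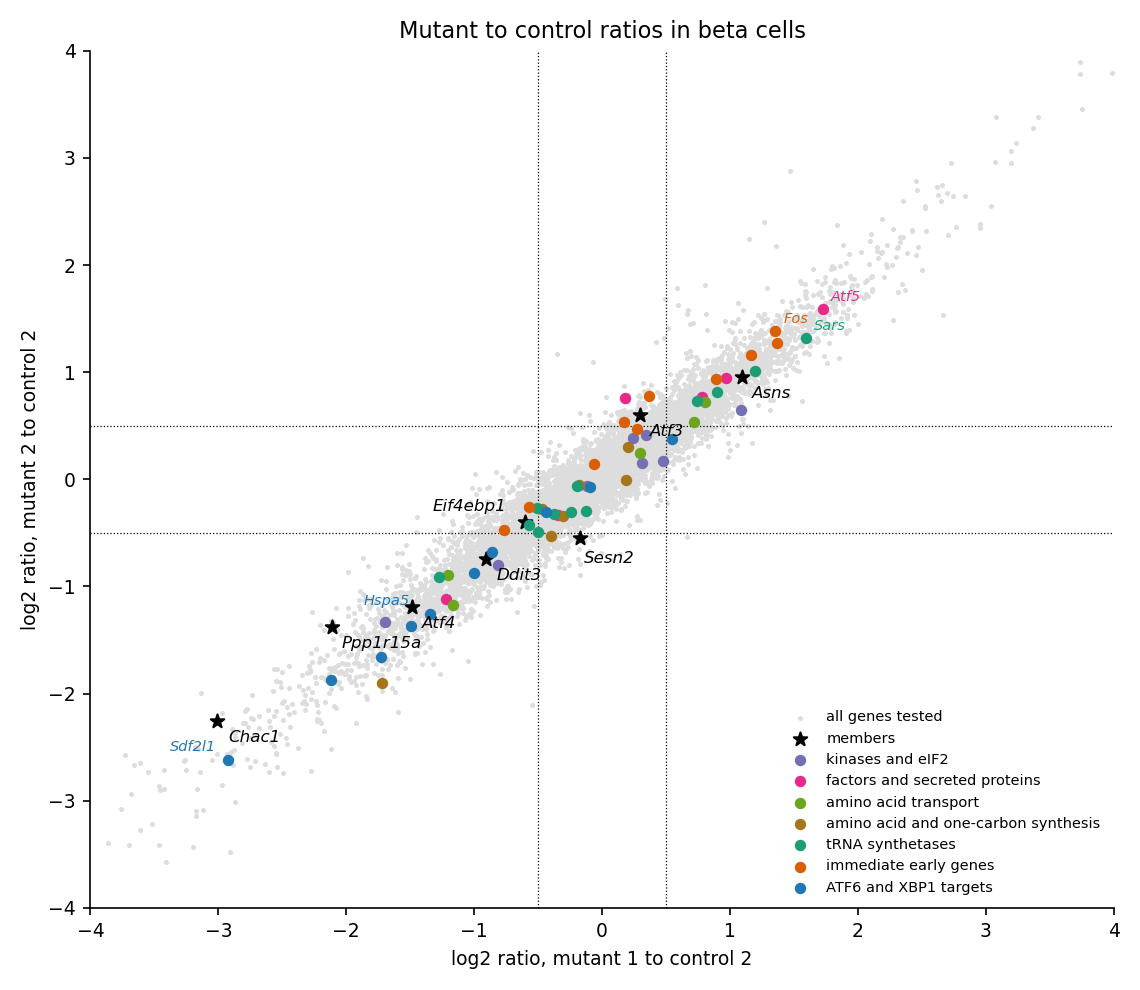
Log2 ratio to control 2 in β cells of mutant 1 (x axis) and mutant 2 (y axis) for all 7590 genes compared (gray), the 8 members compared (black stars) and the other gene lists (colored points), with dotted lines at the fold of 0.5. Asns, Atf5, Sars and Fos lie at the upper right. Chac1, Ppp1r15a, Atf4 and 7 of the 10 ATF6 and XBP1 targets lie at the lower left. Both axes share control 2.

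Whether the members followed Atf4 was asked within each library, where the cells share preparation and genotype label. At 1000 non-hormone UMIs per cell, the ratio of the other members in β cells with an Atf4 UMI to those without one lay below 1 in each library, but it turned with the settings. The 9 others together had 731 CPM in the 171 cells of mutant 1 with an Atf4 UMI and 859 in the 1352 cells without, a ratio of 0.85 (0.70 to 1.02). In mutant 2 the levels were 696 in 181 cells and 863 in 1074 cells, a ratio of 0.81 (0.66 to 0.97). In control 2 they were 857 in 581 cells and 915 in 1356 cells, a ratio of 0.94 (0.84 to 1.04). The ratio of mutant 2 turned to 1.03 with another random draw of UMIs, so its interval does not cover the error of the draw. That of control 2 was 1.01 at 500 UMIs, 1.09 at 5000 UMIs and 1.12 without the 5% of cells with the most UMIs. At this depth 1 UMI sorts cells poorly by their true level, so a ratio near 1 does not show that the genes vary apart.

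Taken singly, the 9 members gave 27 ratios over the 3 libraries, of which 24 had an interval that held 1. Trib3 in mutant 2 lay above 1, at 3.65 (1.31 to 9.50), but rested on 8 UMIs in cells with Atf4, and the ratio was 0.61 in mutant 1 and 0.81 in control 2. Atf3 in mutant 2 lay below 1, at 0.50 (0.26 to 0.89), as did Sesn2 in control 2, at 0.57 (0.33 to 0.95). No member had a ratio above 1 in all libraries, and Asns, Atf3 and Sesn2 had ratios below 1 in all 3. For Asns these were 0.86, 0.84 and 0.88, each with an interval that held 1. Over all genes with at least 50 UMIs the median ratio was between 0.988 and 1.001 in the 3 libraries. Percentiles 5 and 95 of these genes were 0.549 and 1.58 in mutant 1, 0.571 and 1.55 in mutant 2, and 0.691 and 1.41 in control 2. The ratios of Asns lay within these ranges, so they were ordinary among all genes. Those of Atf3 in mutant 2 and Sesn2 in control 2 lay below them. The share of all genes with ratios below 1 in all 3 libraries was not counted.

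Cells with and without an Atf4 UMI had similar depth and insulin share. Their median UMIs were 3617 and 3638 in mutant 1, 5454 and 5099 in mutant 2 and 17033 and 16713 in control 2. The median share of insulin was 42.8% and 41.3%, 44.3% and 42.7%, and 55.6% and 54.3% in the same libraries. At this depth the variance of each member over β cells was between 0.97 and 1.30 times its mean, near the value of 1 that random sampling of UMIs gives.

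**Figure D3:**
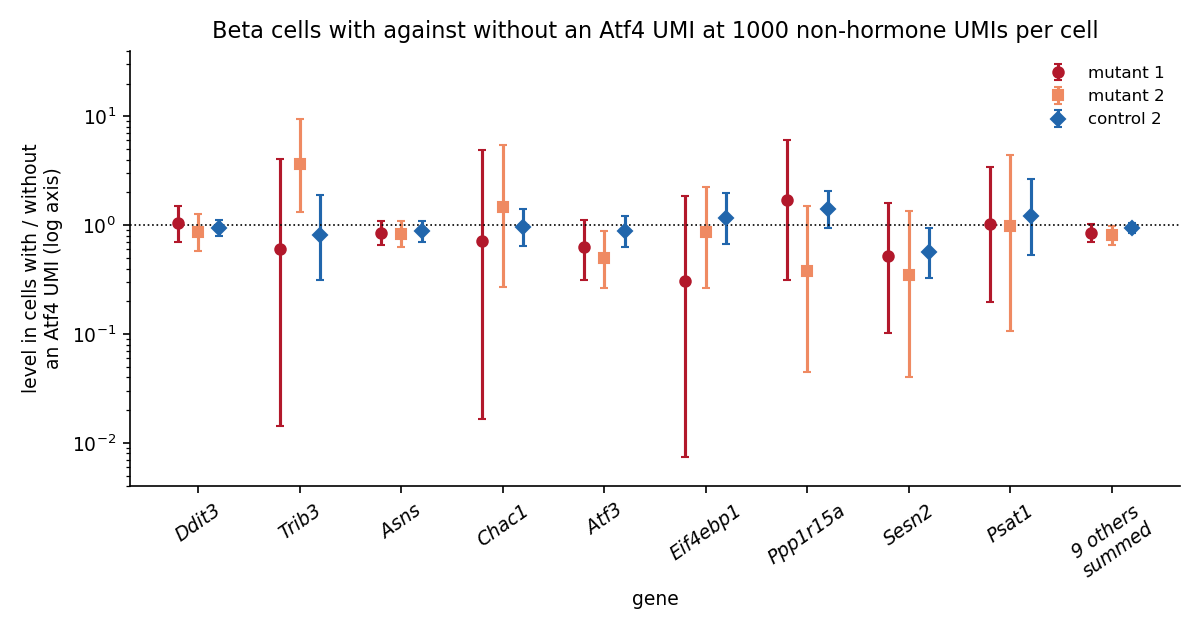
Ratio of the level in β cells with an Atf4 UMI to that in β cells without one (log axis), for each other member and for the 9 together, at 1000 non-hormone UMIs per cell in mutant 1, mutant 2 and control 2. Bars are exact 95% intervals for counting error, the dotted line marks 1, and the 9 together lie at 0.85, 0.81 and 0.94.

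Only control 2 was deep enough for a finer look. At 5000 non-hormone UMIs it held 1247 β cells, against 14 in mutant 1 and 76 in mutant 2, and 79.4% of its cells held an Atf4 UMI. Cells with 0, 1, 2 and 3 or more Atf4 UMIs numbered 257, 354, 304 and 332. The 9 other members together had 805 CPM (756 to 855) in cells with 0 Atf4 UMIs, 817 with 1, 883 with 2 and 925 (880 to 973) with 3 or more. Eif4ebp1 went from 21.8 (14.5 to 31.5) to 48.8 (38.8 to 60.6) between the outer classes, with 38.4 and 30.3 between them. Psat1 went from 7.78 (3.73 to 14.3) to 21.1 (14.7 to 29.3), with 16.4 in both middle classes. Chac1 had 56.8, 57.1, 77.0 and 82.5 CPM in the 4 classes, with intervals of 44.5 to 71.4 and 69.3 to 97.6 at the ends. Ppp1r15a, at 62.3 and 62.0 CPM in the outer classes, and Atf3, at 94.2 and 106, had overlapping intervals. Sesn2 had 51.4 and 42.8. Atf5, outside the members, had 327, 406, 436 and 484 CPM, with intervals of 296 to 360 and 451 to 518 at the ends. The outer classes thus stood apart by counting error for Eif4ebp1, Psat1, Atf5 and the 9 members together, in 1 library and 1 draw of UMIs. The share of all genes whose outer classes stand apart was not counted. The immediate early genes, summed, also stood apart, at 6174 (6039 to 6312) and 6598 (6475 to 6722), so the separation was not particular to the members. Their middle classes were at 6090 and 6155. The ATF6 and XBP1 targets, summed, at 13225 and 13169 in the outer classes, had overlapping intervals. So did the tRNA synthetases, at 1820 and 1878. With cells at this depth split by an Atf4 UMI, the 9 others had a ratio of 1.09 in control 2. In the 76 cells of mutant 2 the ratio was 0.73.

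**Figure D4:**
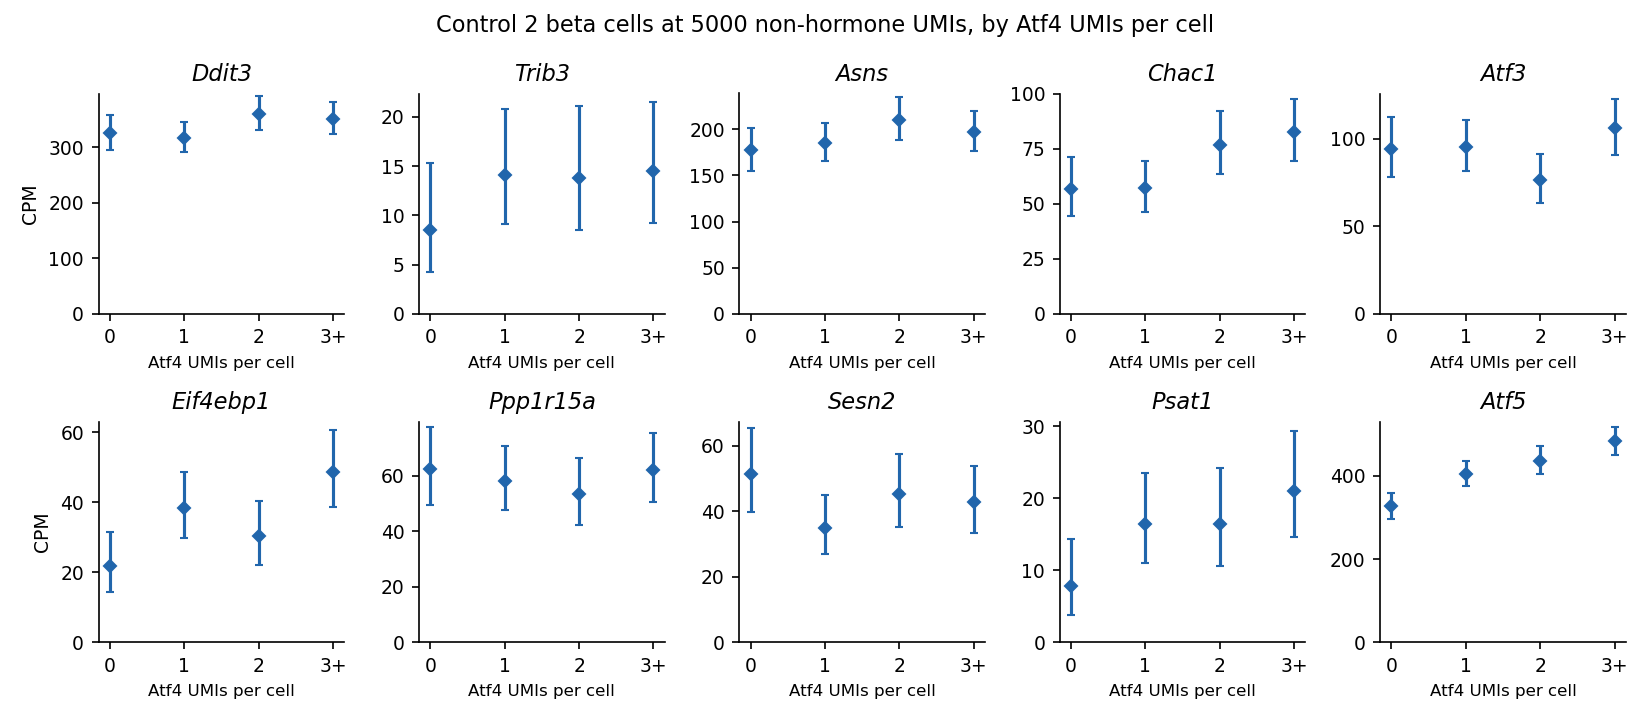
Level (CPM of non-hormone UMIs) of the 9 other members and of Atf5 in 1247 β cells of control 2 brought to 5000 non-hormone UMIs, by the number of Atf4 UMIs in the cell, with exact 95% Poisson intervals. Eif4ebp1 (21.8 to 48.8), Psat1 (7.78 to 21.1) and Atf5 (327 to 484) are higher in the class with 3 or more Atf4 UMIs than in the class with 0, and Ppp1r15a (62.3 and 62.0) is level.

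The same was seen as correlations across these 1247 cells, which share a library and a depth and are given as description. Of 5195 genes with a mean of at least 0.2 UMI per cell, the highest Pearson correlation with Atf4, on log-transformed UMIs, was 0.134, for Dnajb9, an ER cochaperone. Genes next in order were Ngrn, Rpl9, Sri, Nupr1, Pcsk1n, Rpl36al, Uqcrb, Atf5 and Aldh1l2, down to 0.109. The median was 0.003 and the middle 90% of genes lay between -0.051 and 0.057, so all of these are weak. Among members at that depth Chac1 ranked 82, at 0.076, Ddit3 ranked 495, at 0.045, and Asns ranked 1129, at 0.027. Ppp1r15a and Atf3 were at 0.005 and 0.004, and Sesn2 at -0.024. Eif4ebp1, Psat1 and Trib3, too rare to be ranked, had 0.094, 0.066 and 0.043. The values of Chac1, Eif4ebp1 and Psat1 lay above 0.057, the upper end of the middle 90% of ranked genes. Over the 45 pairs of members the median correlation was 0.023, from -0.037 to 0.111, and the highest pair was Asns with Eif4ebp1. Of these 45 correlations 12 were below 0. In the count of cells that held UMIs of both members of a pair, all 45 pairs summed gave 0.97, 1.01 and 0.97 times the number that independence gives in mutant 1, mutant 2 and control 2 at 1000 UMIs. At 5000 UMIs in control 2, single pairs ranged from 0.838 (Eif4ebp1 with Ppp1r15a) to 1.85 (Trib3 with Psat1, 9 cells). Pairs with Atf4 ranged from 0.957 (Sesn2) to 1.12 (Psat1) there.

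Endocrine types were taken by hormone share, with under 20% insulin and at least 5% of UMIs from the leading other hormone. There were 310 α cells (Gcg) in mutant 1, 232 in mutant 2 but 38 in control 2, with 26, 36 and 37 δ cells (Sst) and 59, 39 and 23 PP cells (Ppy). Some markers not used for the rule were checked. The δ factor Hhex was at 134 to 235 CPM in δ cells of every library and at most 9.9 in β, α and PP cells. Ghsr, also a δ marker, was at or near 0. Mafa and Ucn3, markers of β cells, were at 0.080 to 0.134 of their β-cell level in α cells. In control 2 these were 9 Mafa and 10 Ucn3 UMIs. Whether such UMIs came from β cells was not tested.

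Ddit3, Asns and Atf3 differed between endocrine types in all 3 libraries, in opposite directions. They were the 3 of the 10 members whose intervals in α and β cells, and in PP and β cells, stood apart the same way in every library, and between δ and β cells Asns was the only one. By the same rule 7.63% of the 7590 genes were lower and 4.74% higher in α cells, 3.02% and 1.96% in PP cells, and 1.37% and 1.62% in δ cells. Asns was lower in α, δ and PP cells than in β cells of every library, with intervals that did not overlap. In α cells it had 124 CPM in mutant 1, 116 in mutant 2 and 51.2 in control 2, which is 0.28, 0.29 and 0.25 of the β-cell level and above the share of Mafa. In PP cells its level was 0.24 of that in β cells in each library. That rested on 13, 10 and 5 UMIs, with intervals of 0.13 to 0.41, 0.12 to 0.44 and 0.08 to 0.56. In δ cells Asns had 3, 8 and 11 UMIs. Ddit3 was lower in α cells, at 0.48, 0.47 and 0.38 of the β-cell level, and in PP cells, at 0.36, 0.19 and 0.24. In PP cells it had 8, 4 and 8 UMIs. Mafa was at 0.049, 0.085 and 0.031 and Nkx6-1 at 0.22, 0.18 and 0.32 of the β-cell level in PP cells. The part of β-cell RNA in these ratios was not tested.

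Atf3 had the opposite order. It had 509, 696 and 620 CPM in α cells of mutant 1, mutant 2 and control 2, against 119, 148 and 97.2 in β cells. The ratios were 4.27, 4.72 and 6.39 for α cells and 4.47, 2.75 and 6.44 for PP cells, with intervals that did not overlap. In δ cells Atf3 stood apart only in control 2, at 340 CPM from 51 UMIs, while mutant 1 and mutant 2 held 2 and 4 UMIs. Egr1, an immediate early gene, was also higher in α than in β cells, at 4434 against 3395 in mutant 1, 4284 against 3400 in mutant 2 and 4025 against 1517 in control 2.

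Atf4 differed less than these genes between α and β cells. In α cells it had 72.4 CPM in mutant 1, 98.9 in mutant 2 and 268 in control 2, at 0.58 (0.39 to 0.82), 0.64 (0.47 to 0.86) and 0.76 (0.56 to 1.01) of the β-cell level. The interval of control 2 overlapped that of its β cells. Scaled to all UMIs, with hormones included, Atf4 was no longer below its β-cell level in α cells of all 3 libraries. In δ cells Atf4 ranged more widely, at 1.07, 0.29 and 0.59 of the β-cell level, from few UMIs. Chac1 was at 1, 2 and 2 UMIs in α cells of mutant 1, mutant 2 and control 2, and Trib3 at 3, 0 and 1, too few for an order. In α cells of control 2, Eif4ebp1 had 0 UMIs of 175669, against 36.6 CPM in β cells. A limit of 3 counts allows up to 17.1 CPM, and the exact interval, which is drawn in the plot of levels by cell type, reaches 21.0. Ppp1r15a and Sesn2 had overlapping intervals between α and β cells in every library.

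Between libraries, Atf4 and Ppp1r15a were also lower and Asns also higher in α cells of both mutant libraries, while Atf3 did not keep its direction. Atf4 in α cells had log2 ratios to control 2 of -1.85 and -1.41, Ppp1r15a -2.34 and -1.40 and Asns 1.24 and 1.14. These rest on 47, 16 and 9 UMIs in the 38 α cells of control 2. The fold of Asns had intervals of 1.19 to 5.59 in mutant 1 and 1.12 to 5.20 in mutant 2. Sesn2 was also lower in α cells, at -1.07 and -1.11, from 15, 17 and 13 UMIs in mutant 1, mutant 2 and control 2. Its fold intervals were 0.20 to 1.05 and 0.20 to 0.997. Ddit3 in α cells had ratios of -0.53 and -0.42, with fold intervals that held 1. The share of all genes that pass the fold in α cells was not counted, and both ratios share control 2. Atf3, with the most UMIs of the members in α cells (225, 359 and 109), had ratios of -0.28 and 0.16, also with intervals that held 1. Cells outside the hormone rules had under 20% insulin and under 5% each of Gcg, Sst and Ppy. They numbered 362, 213 and 174 in mutant 1, mutant 2 and control 2. In them Atf4 had ratios of -2.07 and -1.82 and Asns 1.57 and 0.89. Some of these cells had 10 to 20% insulin, as a limit of 10% raised the β cells to 2328, 1593 and 2085. Mafa was at 0.27, 0.18 and 0.13 and Asns at 0.48, 0.33 and 0.34 of the β-cell level in the same libraries. The part of insulin-poor β cells or of stray β-cell RNA in these ratios was not tested.

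**Figure D5:**
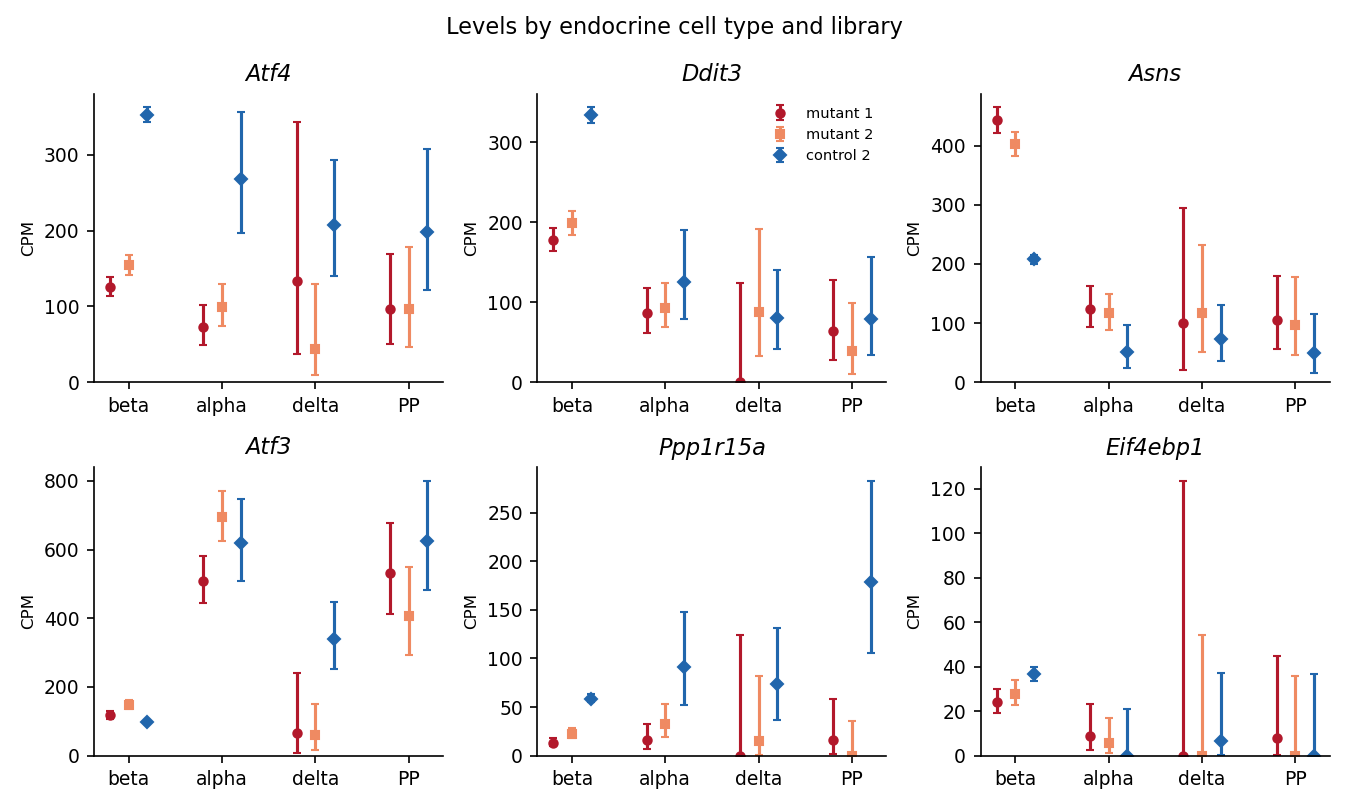
CPM of non-hormone, non-mitochondrial UMIs of 6 members in β, α, δ and PP cells of mutant 1, mutant 2 and control 2, with exact 95% Poisson intervals as bars on linear axes that start at 0. Asns is highest in β cells (443, 402 and 208), Atf3 is higher in α cells (509, 696 and 620) than in β cells, and the bars are wide where few cells were counted.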

How the data were processed

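Droplet single-cell RNA-Seq counts of mouse islet cells were analysed. The deposited tables hold raw counts of UMIs that were left unnormalized. The methods name DropEst for making count matrices, as part of the inDrop-Seq description, whereas the labels give PIPseq. The processing notes name the build GRCm39 and Seurat, and the aligner is not given in the sources used here. Of control 1 only the 2417 barcodes and the gene list were used, and its counts were not analysed here. The members and gene lists were chosen with earlier results of these data known.

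Rows with the same symbol were summed. Cells with under 500 UMIs, under 100 genes or over 10% mitochondrial UMIs were removed, which kept 2940, 2040 and 2283 cells in mutant 1, mutant 2 and control 2, from libraries of 8448466, 9013499 and 36985253 UMIs. Doublets were not called. In mutant 1, mutant 2 and control 2, 18, 8 and 8 cells with at least 20% insulin and 5% of another hormone were left out of every type. Cells under 20% insulin with several other hormones over 5% were kept under the leading one. β-cell UMIs were summed per library and log2 ratios used a prior count of 1. Cells were thinned without replacement with a fixed seed. Named genes were the members, at most the 4 highest and 4 lowest of each list, 8 further genes of these lists, and the 10 genes most correlated with Atf4. The fold rule and the split by Atf4 were tested on simulated data. These held counting error only, with no spread between libraries, and the simulated target depended on the Atf4 UMI itself. They therefore checked the calculation and not how well either rule works in these libraries. Alternatives covered scaling (edgeR 4.0.16 TMM and DESeq2 1.42.0 size factors in R 4.3.3, all UMIs), depth, cell filters, type rules, the prior, the level minimum and each mutant library left out. The work used Python 3.11.15, numpy 2.4.6, scipy 1.17.1, pandas 2.3.3 and matplotlib 3.10.9.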

Additional observations from a re-analysis of the deposited data

Results flagged for a closer look

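Atf3 moved in opposite directions in β and PP cells. In β cells it was higher in both mutant libraries than in control 2, with log2 ratios of 0.29 and 0.60. In PP cells it was lower in both, with ratios of -0.23 in mutant 1 and -0.61 in mutant 2, from 66, 42 and 63 UMIs in mutant 1, mutant 2 and control 2. The fold in PP cells was 0.85 (95% interval for counting error 0.59 to 1.22) and 0.65 (0.43 to 0.97). The difference between the cell types was not tested. It was looked for among α, δ and PP cells where each library held at least 10 UMIs of the gene. In cells outside the hormone rules the ratios of Atf3 were -0.56 and -0.42, and in α cells they were -0.28 and 0.16.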

How the results depend on the processing

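Atf4, Chac1 and Ppp1r15a stayed lower and Asns stayed higher under every alternative run. The mean log2 ratio ran from -1.58 (TMM) to -0.99 (all UMIs) for Atf4 and from 0.69 (cells of 3000 to 6000 UMIs) to 1.38 (all UMIs) for Asns. Members called lower numbered 5 with TMM or DESeq2 size factors, with Eif4ebp1 added, and 3 with all UMIs, without Ddit3. Members called higher numbered 2 with all UMIs, with Atf3 added. With each mutant library left out in turn, 1 to 2 members were higher and 5 lower. Atf3 and Sesn2 joined without mutant 1, and Eif4ebp1 joined without mutant 2. Over all genes, TMM gave 1014 higher, all UMIs gave 957 lower and 2850 higher, and a minimum level of 5 CPM gave 2711 lower and 2550 higher, which tests more genes. Lower genes made up 51.1% of calls, against 71.5% with TMM, 66.0% with DESeq2 size factors and 25.1% with all UMIs, as the median of all genes moved from -0.01 to -0.25, -0.18 and 0.34. A change of scale shifts every gene alike, so the place of a member against the median is fixed by construction. By level alone, overlapping intervals and rare members included, 7 members were below and 2 above β cells in α cells of all 3 libraries, against 4 below with all UMIs and 1 above with 500 UMIs per cell. Of all genes compared 38.8% were below and 20.6% above. Atf4, Trib3 and Psat1 were no longer below in all 3 libraries with all UMIs. The ratio of the 9 other members in cells with an Atf4 UMI was less stable. In mutant 1 it was 0.70 at 500 UMIs. In mutant 2 it turned to 1.16 with at least 2 Atf4 UMIs and to 1.03 with another seed, and it was 0.73 at 5000 UMIs. In control 2 it was 1.09 at 5000 UMIs, 0.82 with at least 2 Atf4 UMIs and 1.12 without the 5% of cells with the most UMIs. The cause was not tested. No paired analysis was possible because control 1 was not analysed here and no test was made. Depth limits the rare members, Trib3 and Psat1, and all members in δ and PP cells.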
